A study of Mus musculus with 38 samples.

Results

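Borderline lesions (BL) were compared with asymptomatic thyroids (AT) that carried no *BRAF*V600E, a comparison of 15 of the 38 mouse thyroids of the series, chosen by the sample titles and by the lesion and mutation labels. The 10 BL mice were all *BRAF*(+): they expressed in the thyroid the RNA of a human *BRAF*V600E cDNA, placed under the bovine thyroglobulin promoter so that it is restricted to follicular cells. The 5 AT mice compared with them were *BRAF*(-), with no transgene RNA and a non-transgenic genotype by the study's methods. All mice were of the FVB/N strain. BL glands are, by the study's histology, thyroids with scattered altered nuclei in single foci that did not meet the criteria of papillary carcinoma. The BL group held 8 females and 2 males aged 4 to 21 months (median 10.5), and the AT *BRAF*(-) group 3 females and 2 males aged 4 to 12 months (median 11). The other mice were 10 papillary thyroid carcinomas (PTC), 5 AT *BRAF*(+) and 8 benign hyperplastic lesions (BHL), 4 *BRAF*(+) and 4 *BRAF*(-). RNA came from one part of each gland and histology from the remainder, so that the tissue on the array is not the tissue that was graded. By the study's own tabulation both groups drew on the lines tg2 and tg3, in unequal parts. BL came mostly from tg3 and AT *BRAF*(-) more often from tg2. The study reports that these lines differed in BRAFV600E protein and in how often each lesion arose. The line of each mouse is not in the labels, so the part of line was not tested. The signal of 35556 probe sets was measured with 1 GeneChip Mouse Gene 1.0 ST array per mouse. All signals are on the log2 scale after robust multi-array averaging (RMA), where a difference of 1 is a doubling.

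BRAF is a serine-threonine kinase that relays signals of RAS to MEK and ERK, and the V600E change keeps it active without RAS. Active ERK induces transcription factors of the ETS and AP-1 families, cyclin D1 and its own inhibitors, the dual-specificity phosphatases and Sprouty-related proteins. The follicular cells of the thyroid take up iodide, couple it to thyroglobulin and release thyroid hormone, and in human papillary carcinoma with *BRAF*V600E these functions are known to be reduced. NKX2-1, a transcription factor of thyroid follicular cells, is also the factor that drives surfactant genes in the lung.

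The arrays were of like brightness, with medians between 6.00 and 6.15 over the 15 mice, and no array was left out. Their pairwise correlations across probe sets lay between 0.944 and 0.988. The tissue was thyroid by its own markers. *Tg*, which encodes thyroglobulin, measured 13.30 to 13.73 (median 13.62) in BL and 13.71, 13.72, 13.63, 13.74 and 13.72 in AT *BRAF*(-), here and below in the order of mice M_771, M_524, M_940, M_956 and M_957, of which the first 2 are male. Markers of tissue next to the thyroid stood high in single mice of both groups. The mean of 19 skeletal muscle genes was 9.04 and 10.40 in BL mice M_527 and M_530 and 9.68 in AT *BRAF*(-) mouse M_940, against 5.37 to 6.15 in the other 12 mice. The mean of 5 parathyroid genes was 9.86 and 8.91 in BL mice M_527 and M_649 and 10.11 in AT *BRAF*(-) mouse M_524. The mean of 12 squamous epithelium genes was 9.59 in BL mouse M_530, and that of 9 interferon response genes was 7.94 in BL mouse M_416. The part of this tissue in the results was not tested beyond the values given beside them, from a fit with the means of skeletal muscle, adipocyte and brown adipocyte genes as covariates (the muscle and adipocyte covariates) and from fits without the 3 muscle-rich mice (M_527, M_530 and M_940). The adipocyte mean was 8.25 to 9.38 in BL and 9.48 to 9.99 in AT *BRAF*(-), with no overlap. The covariates thus share part of the group difference. For a call lost with them, admixed tissue and the difference between the groups cannot be told apart. In whole tissue, fewer cells of a type and less RNA per cell cannot be told apart.

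**Figure D1:**
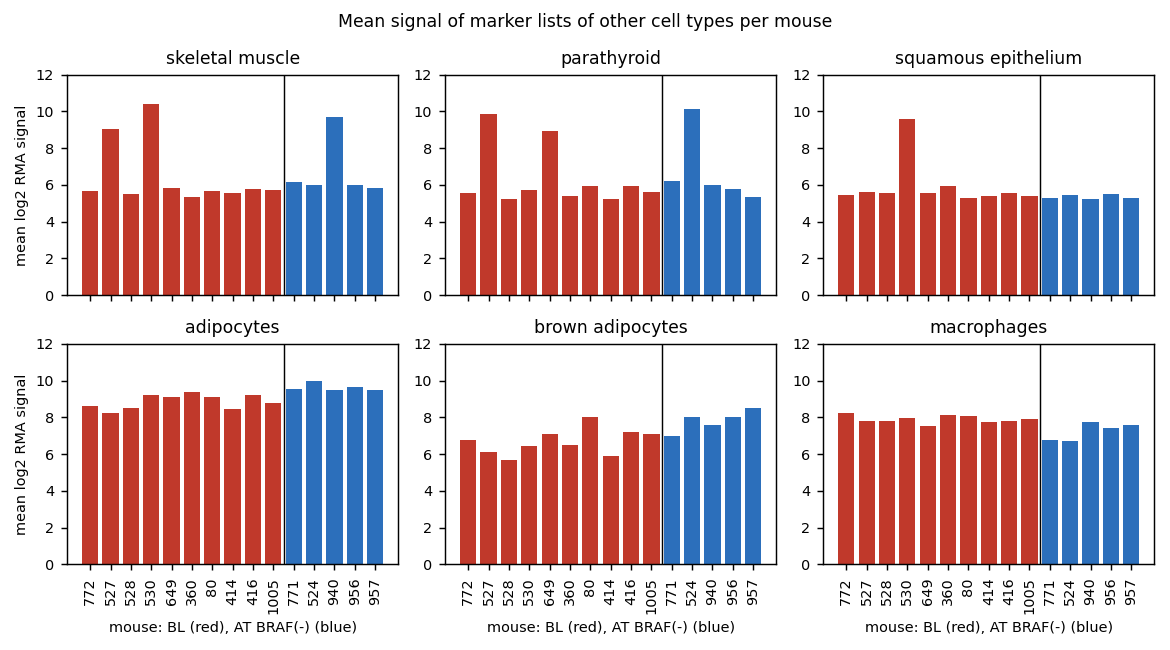
Mean log2 RMA signal of 6 marker lists in each of the 10 BL mice (red, left of the line) and the 5 AT *BRAF*(-) mice (blue, right), named by mouse number. The muscle mean stands out in BL mice M_527 and M_530 and in AT *BRAF*(-) mouse M_940, the parathyroid mean in BL mice M_527 and M_649 and in AT *BRAF*(-) mouse M_524, and the squamous mean in BL mouse M_530.

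BL differed from AT *BRAF*(-) in 2797 of 19938 genes (14.0%), tested with limma at a Benjamini-Hochberg adjusted p under 0.05, with 1443 genes (7.24%) higher and 1354 (6.79%) lower in BL. The largest differences were on the higher side. At a fold of at least 2, 243 genes were higher and 59 lower, and 457 genes (2.29%) had all 10 BL mice above all 5 AT *BRAF*(-) mice, against 205 (1.03%) with all BL mice below. On probe sets the test called 4075 of 35556, 2150 higher and 1925 lower. The count depended on single mice: it was 1812 without AT *BRAF*(-) mouse M_940 and 1319 without the 3 muscle-rich mice. Centring each array on its median moved the median difference by 0.04 and turned the split to 1749 higher and 3186 lower. Among the 3988 genes with the lowest signal 14 were called higher and 114 lower, and among the 3988 brightest 532 and 277. Every p-value below is limma's adjusted p over all probe sets unless another test is named, and differences are given ± SE of the fit. The counts of called genes in the lists below stand beside 7.24% of all genes higher and 6.79% lower. The lists and their members were chosen with earlier results of these data known. A count above these shares is therefore not independent evidence. A list with few calls can lie near these shares.

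Genes of lung surfactant were among those with the largest difference between BL and AT *BRAF*(-). *Sftpb*, *Sftpa1* and *Sftpd*, which encode surfactant proteins B, A and D, rose in BL, whereas *Sftpc* did not pass. The promoter sequences of *Chil1*, *Sftpb*, *Lcn2* and *Sftpa1*, the 4 genes with the highest difference in that order, are given from RefSeq (GRCm38.p6) as the 250 bases before the annotated start, in the gene's own direction. They show which letters known from NKX2-1, AP-1 and ETS binding lie next to the start of these genes. The stretch of *Chil1* lies at chr1:134181906-134182155, that of *Sftpb* at chr6:72304360-72304609 and that of *Sftpa1* at chr14:41131538-41131787, all on the plus strand, and that of *Lcn2* at chr2:32387740-32387989 on the minus strand. Capitals mark CTCAAG, a form of the CAAG core that NKX2-1 binds, and, in *Sftpb*, an overlapping TGANTCA, the AP-1 motif. The CAAG core with other flanks, which *Chil1* and *Lcn2* also hold, was not searched and is not marked.
Chil1: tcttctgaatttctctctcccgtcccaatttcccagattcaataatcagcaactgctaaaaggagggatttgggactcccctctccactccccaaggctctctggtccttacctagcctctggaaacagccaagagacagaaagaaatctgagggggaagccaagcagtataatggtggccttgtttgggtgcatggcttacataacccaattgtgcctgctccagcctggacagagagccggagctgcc
Sftpb: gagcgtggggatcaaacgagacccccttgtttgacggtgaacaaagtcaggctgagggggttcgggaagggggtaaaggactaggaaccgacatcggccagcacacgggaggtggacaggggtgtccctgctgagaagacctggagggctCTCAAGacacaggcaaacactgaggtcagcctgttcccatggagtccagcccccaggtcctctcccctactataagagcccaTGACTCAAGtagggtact
Lcn2: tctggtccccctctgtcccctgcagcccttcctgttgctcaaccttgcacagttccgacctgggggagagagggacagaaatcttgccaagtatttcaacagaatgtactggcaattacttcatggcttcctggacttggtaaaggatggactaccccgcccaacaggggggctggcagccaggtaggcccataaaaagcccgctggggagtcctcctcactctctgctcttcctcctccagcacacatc
Sftpa1: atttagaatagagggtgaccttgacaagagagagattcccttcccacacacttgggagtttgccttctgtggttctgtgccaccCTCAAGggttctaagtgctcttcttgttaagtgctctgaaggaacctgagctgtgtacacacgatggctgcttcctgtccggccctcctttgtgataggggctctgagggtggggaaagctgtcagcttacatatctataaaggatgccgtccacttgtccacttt

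CTCAAG was searched on both strands and was found in 13.3% of 32851 RefSeq promoters of this length. In *Sftpb* it starts 100 and 15 bases before the annotated start and in *Sftpa1* 166 bases before it, and it was in neither *Chil1* nor *Lcn2*. TGANTCA, found in 6.75% of promoters, starts 18 bases before the start of *Sftpb*, shares letters with the nearer of them and was in none of the other 3. The ETS motif CCGGAA, found in 12.0% of promoters, was in none of the 4. Of the 15 genes with the highest difference, 12 were in the promoter table, 2 of them with CTCAAG, 1 with TGANTCA and 1 with CCGGAA. A match of letters is a description of the sequence and not a bound site.

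*Sftpb* (probe set 10539091) measured 11.19 to 12.79 (median 12.54) in BL and 6.30, 6.40, 6.29, 6.30 and 6.05 in AT *BRAF*(-). The groups were far apart, and the smallest gap between a BL and an AT *BRAF*(-) mouse exceeded the range within either group. The fit gave a difference of 6.02 ± 0.26, a 65.1-fold higher signal in BL (adjusted p = 9.6e-18). *Sftpa1* measured 9.64 to 12.65 (median 10.57) in BL and 6.35, 5.71, 6.14, 6.07 and 6.17 in AT *BRAF*(-), a difference of 4.98 ± 0.40 (adjusted p = 1.7e-10). *Sftpd* measured 8.70 to 11.05 (median 9.58) in BL and 6.14, 5.67, 6.18, 5.85 and 5.24 in AT *BRAF*(-), a difference of 4.06 ± 0.37 (adjusted p = 4.9e-09). Every BL mouse lay above every AT *BRAF*(-) mouse for both genes. *Napsa*, the aspartic protease that processes surfactant protein B, measured 11.30 to 12.22 (median 11.74) in BL and 10.16, 10.20, 10.72, 9.75 and 10.22 in AT *BRAF*(-), higher by 1.49 ± 0.19 (adjusted p = 3.8e-06). *Slc34a2*, a phosphate transporter of alveolar type II cells that is also a marker of human papillary carcinoma, measured 6.86 to 9.73 (median 8.26) in BL and 5.96, 6.45, 5.91, 6.47 and 6.09 in AT *BRAF*(-), higher by 2.03 ± 0.34 (adjusted p = 0.0002). The groups did not overlap for either.

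Of 14 measured genes of surfactant and lung epithelium, 8 were higher in BL, 0 lower and 6 did not pass, with a median difference of 0.67. The other 3 were *Ctsh* (0.67 ± 0.15), a cathepsin that also cleaves surfactant protein precursors, *Lyz2* (0.87 ± 0.20), the lysozyme of macrophages and alveolar type II cells, and *Etv5* (0.68 ± 0.19), an ETS factor of alveolar type II cells. *Sftpc*, the surfactant gene that defines alveolar type II cells, measured 3.93 to 4.66 (median 4.37) in BL and 4.47, 4.76, 5.25, 4.67 and 4.57 in AT *BRAF*(-), a difference of -0.42 ± 0.15 (adjusted p = 0.066). All these values lay below the array medians of 6.00 to 6.15. At so low a signal the difference cannot be read as a decrease. *Etv5* and *Sftpc* are outside the naming rule and were chosen after their values were seen. None of 12 airway genes passed, and their mean was highest in BL mice M_649 (8.33) and M_360 (7.76). The count of 8 was 7 with the muscle and adipocyte covariates and 7 without the 3 muscle-rich mice, and 5 in females alone, with *Ctsh* and *Lyz2* among those that did not pass.

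Among the remaining genes with the highest differences, *Chil1* and *Lcn2* encode secreted proteins. *Chil1*, a chitinase-like glycoprotein, measured 9.88 to 12.18 (median 11.50) in BL and 4.96, 5.32, 5.51, 5.32 and 5.04 in AT *BRAF*(-), 65.6-fold higher in BL (log2 difference 6.04 ± 0.40, adjusted p = 1.5e-12). *Lcn2*, lipocalin 2, which binds bacterial iron carriers, measured 9.86 to 12.27 (median 10.99) in BL and 5.74, 5.50, 5.36, 7.25 and 4.92 in AT *BRAF*(-), 39.7-fold higher (log2 difference 5.31 ± 0.37, adjusted p = 7.9e-12). The groups did not overlap for either gene, and AT *BRAF*(-) mouse M_956 stood highest of its group for *Lcn2*. *Gng4*, a gamma subunit of G proteins, measured 9.71 to 11.75 (median 11.51) in BL and 7.77, 6.99, 6.21, 6.14 and 5.84 in AT *BRAF*(-), a difference of 4.62 ± 0.36 (adjusted p = 5.6e-11). *St8sia6*, a sialyltransferase, was higher by 3.89 ± 0.33, and *Sptlc3*, a subunit of the enzyme that starts sphingolipid synthesis, by 3.61 ± 0.38. *Lipk*, a member of the lipase family, was higher by 3.69 ± 0.39, *Tacr3*, a neurokinin receptor, by 3.46 ± 0.41, and *Cntn3*, a contactin of the cell surface, by 3.37 ± 0.33. *Lratd1* (3.81 ± 0.36), *Elapor2* (3.76 ± 0.35) and *BC023105* (3.54 ± 0.39) completed the genes of this set whose groups did not overlap, and the adjusted p of these 8 genes lay between 9.1e-10 and 9.7e-07. *Lrrn1*, a leucine-rich repeat membrane protein, measured 7.63 to 10.12 (median 9.64) in BL and 4.84, 8.65, 5.53, 4.45 and 4.38 in AT *BRAF*(-), a difference of 3.63 ± 0.66 (adjusted p = 0.0006). It was the one of the 15 whose groups overlapped, through AT *BRAF*(-) mouse M_524.

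**Figure D2:**
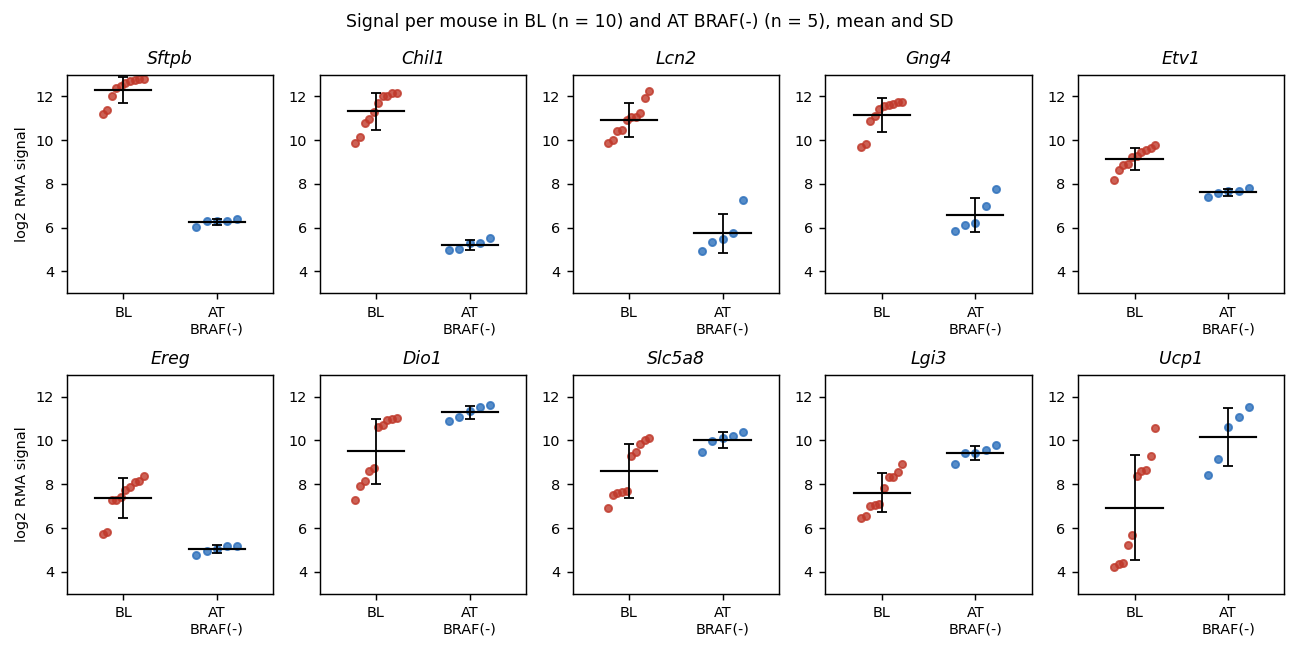
Log2 RMA signal of 10 genes in each mouse, with BL (red, n = 10) left of AT *BRAF*(-) (blue, n = 5) in each panel, and the mean and SD in black. *Sftpb*, *Chil1*, *Lcn2*, *Gng4*, *Etv1* and *Ereg* are higher in every BL mouse, whereas *Dio1*, *Slc5a8* and *Ucp1* spread widely over the BL mice and overlap with AT *BRAF*(-).

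The targets and inhibitors of ERK in the list used here that passed the test were all higher in BL. *Jun*, an AP-1 subunit kept in another list, was called lower and is given under the other observations. Of 23 measured genes of ERK output and feedback, 12 were higher, 0 lower and 11 did not pass, with a median difference of 0.61. *Etv1*, an ETS factor induced by ERK, measured 8.16 to 9.77 (median 9.25) in BL and 7.70, 7.58, 7.38, 7.67 and 7.79 in AT *BRAF*(-), a difference of 1.46 ± 0.21 (adjusted p = 1.6e-05), with no overlap. *Ccnd1*, cyclin D1, measured 9.83 to 11.34 (median 11.06) in BL and 9.90, 9.38, 8.78, 8.52 and 8.85 in AT *BRAF*(-), a difference of 1.60 ± 0.26 (adjusted p = 0.00014). BL mice M_416 and M_649 lay just under the highest AT *BRAF*(-) mouse, M_771. *Dusp6*, the phosphatase that inactivates ERK, was higher by 0.77 ± 0.16 (adjusted p = 0.0018) and *Spred1* and *Spred2*, inhibitors of RAF activation, by 0.98 ± 0.21 and 0.61 ± 0.11 (adjusted p = 0.0028 and 0.0007). *Egr1*, an immediate early factor, was higher by 1.26 ± 0.27 (adjusted p = 0.0027), although AT *BRAF*(-) mouse M_940 reached 8.45 in this gene. *Spry1*, a Sprouty inhibitor, differed by -0.09 ± 0.11 (adjusted p = 0.60), and *Fos*, an AP-1 gene chosen after its values were seen, by -0.57 ± 0.26 (adjusted p = 0.15). With the muscle and adipocyte covariates 4 of the 12 passed, and without the 3 muscle-rich mice 11.

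The cascade above them differed by less. *Braf* measured 9.19 to 10.19 (median 9.60) in BL and 9.31, 8.99, 8.78, 9.23 and 9.33 in AT *BRAF*(-), a difference of 0.54 ± 0.14 (adjusted p = 0.009), and the groups overlapped. Whether this mouse probe set also reads the human transgene was not tested. Of 12 measured genes of the cascade, 5 were higher and 0 lower, with a median of 0.18. The other 4 were *Araf* (0.25 ± 0.06), a RAF kinase, *Nf1* (0.52 ± 0.14) and *Rasa1* (0.66 ± 0.18), which switch RAS off, and *Rps6ka3* (0.39 ± 0.12), a kinase downstream of ERK. None of the 5 passed without AT *BRAF*(-) mouse M_940, without the 3 muscle-rich mice or with the muscle and adipocyte covariates, where *Braf* had adjusted p = 0.19.

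Growth factor receptors were called in both directions. Of 20 measured growth factors and receptor kinases, 7 were higher, 2 lower and 11 did not pass. *Ereg*, which encodes epiregulin, a ligand of the EGF receptor, measured 5.72 to 8.39 (median 7.58) in BL and 5.20, 5.06, 4.77, 5.18 and 4.95 in AT *BRAF*(-), a difference of 2.27 ± 0.42 (adjusted p = 0.00076). All BL mice were above all AT *BRAF*(-) mice, with BL mice M_649 and M_416 the lowest. The receptors *Erbb2* and *Erbb3* were higher by 0.69 ± 0.14 and 0.93 ± 0.16 (adjusted p = 0.0015 and 0.00032), *Igf1r*, the IGF1 receptor, by 0.90 ± 0.14 (adjusted p = 8.2e-05) and *Met*, the HGF receptor, by 0.67 ± 0.15 (adjusted p = 0.0052). The receptor *Fgfr2* measured 9.15 to 10.37 (median 9.57) in BL and 10.59, 10.40, 10.29, 10.29 and 10.30 in AT *BRAF*(-), a difference of -0.60 ± 0.15 (adjusted p = 0.011). *Egfr*, outside the naming rule and chosen after its values were seen, differed by -0.59 ± 0.16 (adjusted p = 0.015). Without AT *BRAF*(-) mouse M_956, 1 of the 2 lower genes passed. *Egfr* and *Fgfr2* did not pass with the muscle and adipocyte covariates, and 6 of the 7 higher genes did.

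**Figure D3:**
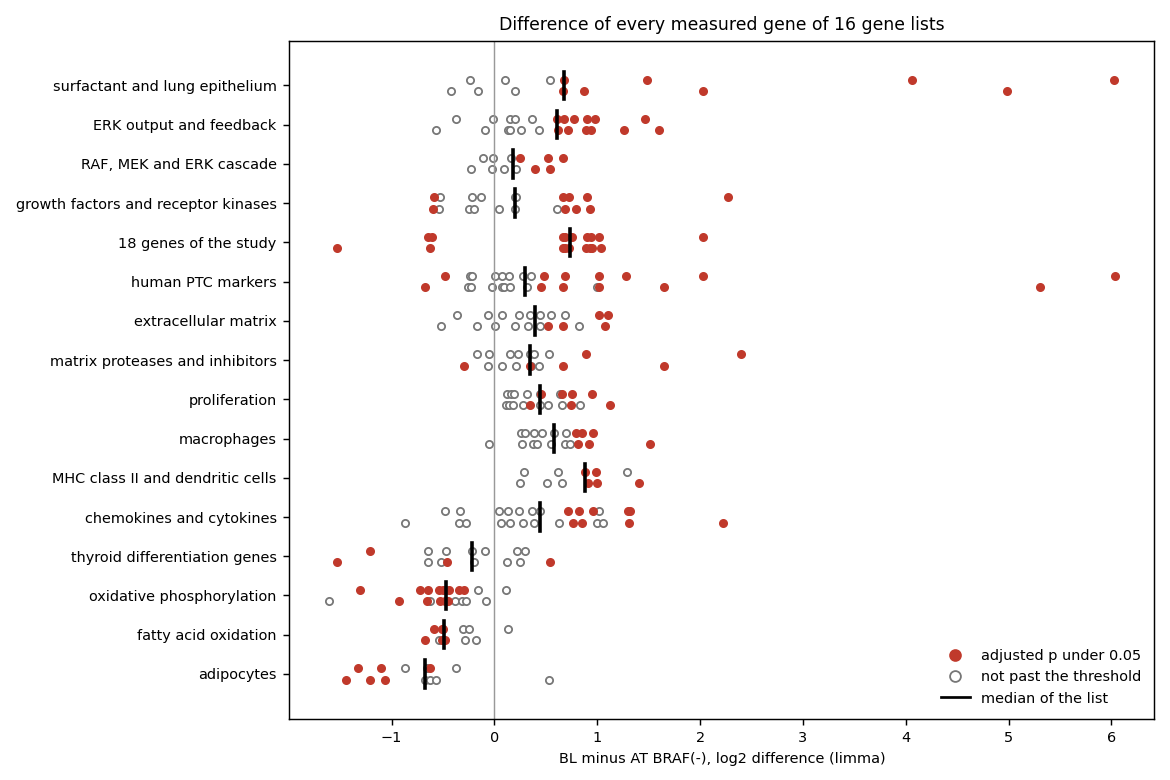
Difference of BL minus AT *BRAF*(-) for each measured gene of 16 gene lists, on the log2 scale from the limma fit, with points past adjusted p of 0.05 filled in red and the others open and a black line at the median of each list. The surfactant list reaches 6.02, the ERK output list has its called genes all on the higher side, and the oxidative phosphorylation and adipocyte lists have theirs all on the lower side.

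Most thyroid-specific genes did not pass the test, and their signal varied between BL mice. Of 15 measured genes of the thyroid differentiation score (TDS), 1 was higher in BL, 3 were lower and 11 did not pass, with a median difference of -0.22. The mean of these 15 genes was 8.34 to 9.22 in BL and 9.03 to 9.31 in AT *BRAF*(-). Among all genes 7.24% were higher and 6.79% lower. *Dio1*, the deiodinase that converts thyroxine to its active form, measured 7.27 to 11.05 (median 9.69) in BL and 11.52, 11.62, 11.33, 10.90 and 11.06 in AT *BRAF*(-), a difference of -1.53 ± 0.48 (adjusted p = 0.034). *Slc5a8*, an apical transporter, measured 6.92 to 10.13 (median 8.50) in BL and 10.21, 10.40, 9.46, 9.98 and 10.12 in AT *BRAF*(-), a difference of -1.21 ± 0.41 (adjusted p = 0.048). The spread of BL was the wider one in both. BL mice M_527, M_528, M_530, M_360 and M_414 were lowest for *Dio1* and for *Slc5a8*, while BL mice M_772, M_649, M_80, M_416 and M_1005 lay near or within the AT *BRAF*(-) values. Both calls were weak. Neither passed without BL mouse M_360, M_414, M_528 or M_530 or AT *BRAF*(-) mouse M_940, M_956 or M_957, nor, for *Slc5a8*, without BL mouse M_527, M_772 or M_80 or AT *BRAF*(-) mouse M_524. Both were also lost in females alone and with the muscle and adipocyte covariates (adjusted p = 0.17 and 0.29). The 3 lower genes of the TDS list were 5 without BL mouse M_1005 and 1 without any one of BL mice M_360, M_414, M_528 and M_530 and AT *BRAF*(-) mice M_956 and M_957, and the higher gene was lost without BL mouse M_360 or M_528 or AT *BRAF*(-) mouse M_940, M_956 or M_957. *Iyd*, which recovers iodide from spent iodotyrosines, differed by -0.48 ± 0.15 (adjusted p = 0.038), and *Thra*, a thyroid hormone receptor, by -0.46 ± 0.11 (adjusted p = 0.0049). *Slc16a10*, a transporter of thyroid hormone, differed by -0.77 ± 0.19 (adjusted p = 0.0084). *Iyd*, *Thra* and *Slc16a10* did not pass with the muscle and adipocyte covariates either (adjusted p = 0.10, 0.10 and 0.30). Of 8 measured genes of deiodinases, hormone receptors and transporters, 3 were lower and 0 higher, with a median difference of -0.29. With those covariates 0 of the 8 passed.

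The iodide pump and the hormone precursor did not pass the test, with the values that follow. *Slc5a5*, the sodium iodide symporter, measured 8.65 to 11.26 (median 10.46) in BL and 11.58, 11.74, 11.12, 9.99 and 10.76 in AT *BRAF*(-), a difference of -0.65 ± 0.40 (adjusted p = 0.29). *Tshr*, the thyrotropin receptor, differed by -0.64 ± 0.25 (adjusted p = 0.086), *Duox2*, an oxidase for hormone synthesis, by -0.52 ± 0.22 (adjusted p = 0.12), and *Tg* by -0.09 ± 0.05 (adjusted p = 0.29). The transcription factors of the follicular cell, *Pax8*, *Nkx2-1* and *Foxe1*, differed by -0.20 ± 0.11, 0.25 ± 0.13 and -0.22 ± 0.14, with adjusted p of 0.24, 0.22 and 0.33. *Glis3*, a zinc finger factor of thyroid development, was higher by 0.54 ± 0.17 (adjusted p = 0.032), which was lost without BL mouse M_360 or M_528 or AT *BRAF*(-) mouse M_940, M_956 or M_957. Of 14 genes of iodide handling and hormone synthesis, 0 were higher and 3 lower, the third being *Cga*, the alpha subunit of pituitary glycoprotein hormones, at -0.33 ± 0.09. None of the 3 passed without AT *BRAF*(-) mouse M_940, and 1 gene was called without any one of BL mice M_360, M_414, M_528, M_530, M_772 and M_80 and AT *BRAF*(-) mice M_956 and M_957.

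**Figure D4:**
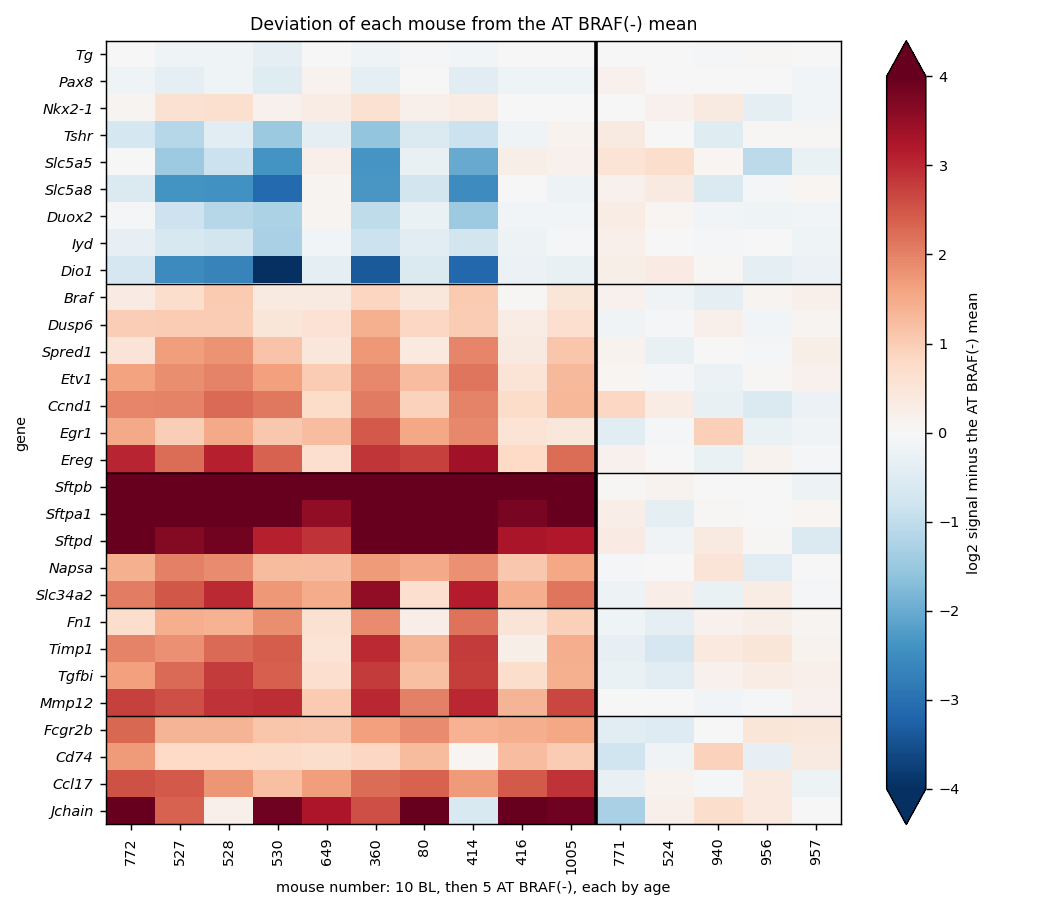
Log2 RMA signal of 29 genes in each mouse minus the mean of the 5 AT *BRAF*(-) mice, with the 10 BL mice left and the 5 AT *BRAF*(-) mice right of the line, each by age. From top to bottom the blocks hold thyroid genes, the ERK cascade and its targets with *Ereg*, surfactant genes, matrix genes and immune genes. Surfactant genes are raised in all BL mice, while *Dio1*, *Slc5a8* and *Slc5a5* are low in BL mice M_527, M_528, M_530, M_360 and M_414 and close to the AT *BRAF*(-) mean in BL mice M_649, M_416 and M_1005.

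The study had picked 18 genes from its comparison of non-malignant *BRAF*(+) with *BRAF*(-) mice, the same 5 AT *BRAF*(-) mice included, and from human tumours, so that their direction here is not independent evidence. The study itself also tabulated borderline lesions against *BRAF*(-) healthy thyroids for these genes. In BL 14 of the 18 were higher and 4 lower than in AT *BRAF*(-). *Itpr3*, a calcium channel of the endoplasmic reticulum, measured 8.57 to 9.76 (median 9.22) in BL and 7.92, 8.13, 8.10, 8.17 and 8.15 in AT *BRAF*(-), higher by 1.04 ± 0.17 (adjusted p = 0.0002). *Aldh3b1*, an aldehyde dehydrogenase, measured 7.49 to 8.48 (median 8.27) in BL and 7.26, 7.12, 7.33, 7.34 and 7.12 in AT *BRAF*(-), higher by 0.95 ± 0.18 (adjusted p = 0.00068). The groups did not overlap in either gene. *Epha2*, an ephrin receptor, was higher by 0.90 ± 0.20, *Plaur*, the urokinase receptor, by 0.89 ± 0.20, *Fn1*, fibronectin, by 1.02 ± 0.24 and *Grb7*, an adaptor of receptor kinases, by 0.72 ± 0.17. *Pdlim4*, *Nectin3*, *Erbb3*, *Met*, *Rasa1* and *Slc34a2* were higher too, the first by 0.94 ± 0.23 and the second by 0.76 ± 0.21. *Nectin3*, named *PVRL3* by the study, was lower in the study's human *BRAF*(+) carcinomas, the other direction. *Dcstamp* and *Lad1* had the weakest calls among the higher genes, at adjusted p of 0.044 and 0.049. *Mmd*, *Aacs* and *Iqgap2* were lower beside *Dio1*, at -0.64 ± 0.19, -0.61 ± 0.19 and -0.63 ± 0.19 in BL minus AT *BRAF*(-). The muscle and adipocyte covariates left 6 higher and 0 lower, and the fit without the 3 muscle-rich mice left 9 and 0. The 4 lower genes were 0 without AT *BRAF*(-) mouse M_957, 1 without BL mouse M_528 or AT *BRAF*(-) mouse M_940 or M_956, and 2 without BL mouse M_360, M_414 or M_530 or AT *BRAF*(-) mouse M_524.

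Among all genes 7.24% were higher in BL and 6.79% lower. Of 28 measured markers of human papillary carcinoma, 11 were higher in BL, 2 were lower and 15 did not pass, with a median of 0.29. Beside *Chil1*, *Lcn2* and *Slc34a2* these included *Icam1*, an adhesion molecule for leukocytes, which measured 9.31 to 10.00 (median 9.73) in BL and 8.44, 8.66, 8.83, 8.84 and 8.55 in AT *BRAF*(-), higher by 1.02 ± 0.14 (adjusted p = 1.5e-05). *Hmga2*, a chromatin protein of embryonic and tumour tissue, was higher by 1.28 ± 0.29 (adjusted p = 0.0047) and *Timp1*, an inhibitor of matrix proteases, by 1.65 ± 0.41 (adjusted p = 0.0088). *Rxrg*, a retinoid receptor that is raised in human tumours, was lower here, at -0.67 ± 0.19 (adjusted p = 0.02), and *Cited1*, a transcriptional co-activator chosen after its values were seen, was lower at -0.48 ± 0.15 (adjusted p = 0.027). With the muscle and adipocyte covariates 5 were higher and 1 lower. The lower count was 4 without BL mouse M_416 and 1 without AT *BRAF*(-) mouse M_524, M_940 or M_956.

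Matrix genes were partly higher in BL. Of 20 measured matrix genes 5 were higher and 0 lower, with a median of 0.39. *Fn1* measured 10.31 to 12.20 (median 11.21) in BL and 9.86, 9.68, 10.22, 10.26 and 10.15 in AT *BRAF*(-) (adjusted p = 0.0054), and the 2 groups did not overlap. *Thbs2*, a thrombospondin, was higher by 1.08 ± 0.30, *Vcan* and *Agrn*, proteoglycans, by 1.11 ± 0.27 and 0.52 ± 0.14, and *Col5a2*, a collagen, by 0.66 ± 0.21. None of the 5 passed with the muscle and adipocyte covariates or without the 3 muscle-rich mice, and 3 were called without AT *BRAF*(-) mouse M_940 or M_956. *Mmp12*, the elastase of macrophages, measured 6.51 to 8.49 (median 8.17) in BL and 5.48, 5.46, 5.34, 5.42 and 5.62 in AT *BRAF*(-), higher by 2.40 ± 0.42 (adjusted p = 0.00038) with no overlap. *Tgfbi*, a matrix protein induced by TGF-beta, measured 9.84 to 11.97 (median 11.12) in BL and 8.91, 8.75, 9.34, 9.45 and 9.38 in AT *BRAF*(-), higher by 1.70 ± 0.29 (adjusted p = 0.00024), again with no overlap. Of 18 matrix proteases and inhibitors 5 were higher, *Mmp12*, *Timp1*, *Timp3*, *Adamts1* and *Plaur*, and *Mmp7* was lower at -0.30 ± 0.09. With the muscle and adipocyte covariates 1 of the 5 passed, and without AT *BRAF*(-) mouse M_940 or M_956, 3 passed. *Mmp7* did not pass without BL mouse M_360 or M_80 or AT *BRAF*(-) mouse M_524, M_940 or M_956. Of 14 genes of epithelial-mesenchymal transition 4 were higher, among them *Tgfb1*, the transforming growth factor (0.62 ± 0.16), *S100a4* (0.67 ± 0.22) and *Inhba*, an activin subunit (0.95 ± 0.21), and *Twist2* was lower at -0.40 ± 0.10, with 1 higher and 0 lower under the muscle and adipocyte covariates. *Vim*, vimentin, differed by 0.38 ± 0.13 (adjusted p = 0.053).

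Part of the proliferation genes were higher in BL. Of 21 measured genes 7 were higher and 0 lower, with a median of 0.45. *Mki67*, the Ki-67 antigen of cycling cells, measured 5.68 to 7.53 (median 6.88) in BL and 5.61, 5.26, 5.57, 5.23 and 6.60 in AT *BRAF*(-), a difference of 1.12 ± 0.31 (adjusted p = 0.019). BL mouse M_649 lay within the AT *BRAF*(-) values, and AT *BRAF*(-) mouse M_957 reached 6.60. *Cdk1*, *Ccnb2* and *Mcm6*, of mitosis and DNA replication, were higher by 0.76 ± 0.22, 0.74 ± 0.23 and 0.66 ± 0.19. The count of 7 was 11 without BL mouse M_649, 4 without BL mouse M_360, M_530, M_772 or M_80 or AT *BRAF*(-) mouse M_771, and 3 without AT *BRAF*(-) mouse M_524. None of the 7 passed without AT *BRAF*(-) mouse M_940 or mouse M_956, in females alone, without the 3 muscle-rich mice or with the muscle and adipocyte covariates.

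Part of the macrophage and antigen presentation genes were higher in BL. Of 19 measured macrophage genes 6 were higher and 0 lower, with a median of 0.58. *Fcgr2b*, an inhibitory Fc receptor, measured 8.48 to 9.72 (median 8.83) in BL and 6.98, 6.90, 7.40, 7.90 and 7.84 in AT *BRAF*(-), a difference of 1.51 ± 0.26 (adjusted p = 0.00026), with no overlap. *Mrc1*, the mannose receptor, was higher by 0.96 ± 0.28, *Itgam*, an integrin of myeloid cells, by 0.92 ± 0.25 and *Cd68* by 0.79 ± 0.25. *C1qb*, of the complement component C1q, differed by 0.46 ± 0.22 (adjusted p = 0.17). In females alone 1 of the 19 passed, and the median was 0.26. Without AT *BRAF*(-) mouse M_524 or M_771, the 2 males of that group, 1 and 2 passed, and 3 were called without BL mouse M_360, M_530, M_772 or M_80 or without the 3 muscle-rich mice.

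Of 11 measured genes of MHC class II and dendritic cells, 5 were higher and 0 lower. *Itgax*, the CD11c integrin of dendritic cells, measured 6.67 to 8.07 (median 7.06) in BL and 5.12, 5.34, 6.46, 6.09 and 6.30 in AT *BRAF*(-), a difference of 1.41 ± 0.32 (adjusted p = 0.005). *Cd74*, the invariant chain, was higher by 0.91 ± 0.30 and *Ciita*, the factor that switches on class II genes, by 0.88 ± 0.26, with overlapping groups for *Cd74*. The class II genes *H2-Ab1* and *H2-DMa* were higher by 0.99 ± 0.33 and 1.0 ± 0.30. None of the 11 passed in females alone, and 1 passed without AT *BRAF*(-) mouse M_524 or M_771 or without BL mouse M_772 or M_80, the males. The count was 2 without AT *BRAF*(-) mouse M_956 and 3 without BL mouse M_1005, M_360 or M_416, and 3 with the muscle and adipocyte covariates. Of 27 chemokines and cytokines 9 were higher and 0 lower. *Ccl17*, a chemokine made by dendritic cells, measured 6.92 to 8.61 (median 8.02) in BL and 5.43, 5.86, 5.67, 6.13 and 5.52 in AT *BRAF*(-), a difference of 2.22 ± 0.45 (adjusted p = 0.0018), with no overlap. *Ccl22*, which binds the same receptor, was higher by 1.30 ± 0.38, and *Ccl2* and *Ccl6*, which attract monocytes, by 0.72 ± 0.18 and 1.31 ± 0.36. In females alone 1 of the 27 passed and without the 3 muscle-rich mice 2. The count of 9 was 4 without BL mouse M_360 or AT *BRAF*(-) mouse M_524 or M_940, 5 without BL mouse M_80 or AT *BRAF*(-) mouse M_771 or M_957, and 5 with the muscle and adipocyte covariates.

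Of the lymphocyte genes 1 passed. *Jchain*, the joining chain of secreted immunoglobulins, measured 4.96 to 11.08 (median 9.15) in BL and 4.27, 5.77, 6.29, 5.97 and 5.58 in AT *BRAF*(-), a difference of 3.14 ± 0.90 (adjusted p = 0.022). BL mice M_414 and M_528 lay within the AT *BRAF*(-) values and the call was lost without AT *BRAF*(-) mouse M_771. It was 1 of 11 genes of B and plasma cells, whose mean was highest in BL mice M_416 (7.33) and M_80 (7.17), against 5.69 to 6.05 in AT *BRAF*(-). Among all genes 7.24% were higher. None of 12 T cell genes, 9 interferon response genes or 14 endothelial genes passed, and *Cd3e*, a subunit of the T cell receptor complex, differed by 0.57 ± 0.38 (adjusted p = 0.35).

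Of the genes of fat tissue none were higher and part were lower in BL. Of 13 measured adipocyte genes 6 were lower and 0 higher, with a median of -0.68. *Cidec*, a lipid droplet protein, measured 7.04 to 8.89 (median 8.49) in BL and 9.53, 9.63, 9.42, 9.77 and 9.27 in AT *BRAF*(-), a difference of -1.33 ± 0.37 (adjusted p = 0.019). *Adipoq*, adiponectin, measured 7.16 to 9.48 (median 8.58) in BL and 9.58, 9.84, 9.56, 9.63 and 9.49 in AT *BRAF*(-), a difference of -1.21 ± 0.40 (adjusted p = 0.042). No BL mouse reached the AT *BRAF*(-) values in either gene. *Ucp1*, the uncoupling protein of brown fat and the gene with the lowest difference, measured 4.24 to 10.56 (median 7.01) in BL and 8.41, 10.61, 9.18, 11.07 and 11.54 in AT *BRAF*(-), a difference of -2.90 ± 0.96 (adjusted p = 0.045). BL mice M_527, M_528, M_530, M_360 and M_414 lay between 4.24 and 5.66, below every AT *BRAF*(-) mouse, whereas BL mice M_649, M_80, M_416 and M_1005 lay within the AT *BRAF*(-) range. Of 10 brown adipocyte genes, *Ucp1* and *Cox7a1* (-1.31 ± 0.42) were lower. Of 12 genes of fatty acid synthesis 3 were lower, *Thrsp* (-1.62 ± 0.52), a regulator of lipid synthesis, *Acacb* (-1.05 ± 0.36), an acetyl-CoA carboxylase, and *Mlxipl* (-0.85 ± 0.27), a glucose-responsive factor. None of these 5 passed with the muscle and adipocyte covariates, which *Ucp1*, *Cox7a1* and the adipocyte genes themselves enter. The adipocyte mean was 8.25 to 9.38 in BL and 9.48 to 9.99 in AT *BRAF*(-). None of the 6 adipocyte genes passed without the 3 muscle-rich mice, and 1 passed without AT *BRAF*(-) mouse M_940 or M_524, 2 without BL mouse M_414, M_527, M_528 or M_772 or AT *BRAF*(-) mouse M_956 or M_957, and 3 without AT *BRAF*(-) mouse M_771. *Cidec* passed without any one mouse. *Ucp1* did not pass without any one of BL mice M_360, M_414, M_527, M_528, M_530 and M_772 or AT *BRAF*(-) mice M_524, M_940, M_956 and M_957. Over single mice left out, the brown adipocyte count lay between 0 and 5 and that of fatty acid synthesis between 0 and 6, the highest without AT *BRAF*(-) mouse M_771 or BL mouse M_80, M_416 or M_649.

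Genes of mitochondria were called on the lower side as well. Of 22 measured genes of oxidative phosphorylation 13 were lower and 0 higher, with a median of -0.47. *Ndufb8*, of complex I, measured 8.07 to 9.49 (median 8.82) in BL and 9.59, 10.03, 10.56, 9.07 and 9.71 in AT *BRAF*(-), a difference of -0.93 ± 0.21 (adjusted p = 0.0042). *Uqcrq*, of complex III, *Sdhb*, of complex II, and *Cox6a1*, of complex IV, were lower at -0.73 ± 0.16, -0.65 ± 0.15 and -0.65 ± 0.16. Of 12 genes of fatty acid oxidation 6 were lower and 0 higher, among them *Acaa2* (-0.67 ± 0.18) and *Hadh* (-0.59 ± 0.16), and the count was 3 without BL mouse M_772 or AT *BRAF*(-) mouse M_956 and 1 without AT *BRAF*(-) mouse M_957, and 0 with the muscle and adipocyte covariates. The count of 13 was 5 without AT *BRAF*(-) mouse M_940, which had a high muscle mean, 7 without mouse M_524, 8 without mouse M_957, 2 without the 3 muscle-rich mice, 0 with the muscle and adipocyte covariates and 11 in females alone. None of the 19 skeletal muscle genes passed, and their median was -0.42.

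Of the 15 genes with the lowest difference, *Lgi3*, a secreted leucine-rich repeat protein, measured 6.44 to 8.91 (median 7.47) in BL and 9.81, 9.56, 9.43, 8.93 and 9.41 in AT *BRAF*(-), a difference of -1.69 ± 0.31 (adjusted p = 0.0007). The highest BL mouse, M_649, was just under the lowest AT *BRAF*(-) mouse, M_956. *Lrat*, which esterifies retinol for storage, measured 5.55 to 7.82 (median 6.54) in BL and 8.32, 8.35, 8.13, 8.55 and 8.41 in AT *BRAF*(-), a difference of -1.47 ± 0.37 (adjusted p = 0.01), and no BL mouse reached AT *BRAF*(-). *S100b*, a calcium-binding protein of glia and adipocytes, was lower at -1.36 ± 0.25 (adjusted p = 0.0007) and *Tmem255a* at -1.44 ± 0.26 (adjusted p = 0.00054). *Car4*, a carbonic anhydrase (-1.55 ± 0.44), *Cdo1*, a cysteine dioxygenase (-1.54 ± 0.36), *Scg3*, a granin of secretory granules (-1.45 ± 0.46), *Inmt*, a methyltransferase (-1.45 ± 0.43), *Retn*, resistin of adipocytes (-1.45 ± 0.43), *Gpx2*, a glutathione peroxidase (-1.42 ± 0.34), and *Efhd1*, a mitochondrial calcium-binding protein (-1.39 ± 0.26), were also among the lowest. *Lgi3*, *S100b* and *Tmem255a* passed in each of the alternatives tried that kept the probe set.

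Genes of developmental signalling were few but included large differences. *Dlk1*, a ligand-like inhibitor of Notch signalling and of adipocyte differentiation, measured 9.19 to 11.76 (median 9.96) in BL and 6.61, 6.82, 6.90, 6.82 and 6.89 in AT *BRAF*(-), a difference of 3.34 ± 0.43 (adjusted p = 3.8e-06). The groups did not overlap, and BL mouse M_527 was the highest. *Meg3*, a non-coding RNA of the same imprinted region, was higher by 2.60 ± 0.41 (adjusted p = 7.9e-05). *Jag1*, a Notch ligand, was higher by 0.91 ± 0.16 (adjusted p = 0.00039), *Sfrp1*, a secreted Wnt antagonist, by 1.15 ± 0.28 and *Lgr5*, a Wnt co-receptor, by 0.88 ± 0.29, and these made 4 of 15 genes of Wnt and Notch signalling with 0 lower. With the muscle and adipocyte covariates *Sfrp1* and *Lgr5* did not pass (adjusted p = 0.056 and 0.40), which left 2, and the call of *Lgr5* was also lost without any one of 11 mice (BL mice M_360, M_414, M_528, M_530, M_772 and M_80 and all 5 AT *BRAF*(-) mice). In the retinoid list 2 of 17 genes were higher and 2 lower (1 without AT *BRAF*(-) mouse M_957), beside 7.24% and 6.79% of all genes. *Stra6*, the retinol uptake receptor, measured 6.60 to 8.07 (median 7.55) in BL and 6.37, 6.10, 5.73, 6.45 and 6.03 in AT *BRAF*(-), higher by 1.35 ± 0.22 (adjusted p = 0.00018), and *Aldh1a2*, which makes retinoic acid, was higher by 1.05 ± 0.30. With the muscle and adipocyte covariates 1 gene of the list was higher and 0 lower, and *Aldh1a2* did not pass, as it did not without AT *BRAF*(-) mouse M_940.

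The BL mice were set beside the 5 AT *BRAF*(+) mice, which carry transgene RNA in glands of unchanged histology, with the same 10 BL mice in both comparisons. The differences against AT *BRAF*(+) were smaller for the genes that separated BL most from AT *BRAF*(-). *Sftpb* measured 10.19 to 12.42 in AT *BRAF*(+), a difference of BL minus AT *BRAF*(+) of 0.70 ± 0.26 (adjusted p = 0.10) beside 6.02 ± 0.26 against AT *BRAF*(-). *Lcn2* differed by 0.27 ± 0.37 against AT *BRAF*(+) (adjusted p = 0.68) and *Sftpd* by 0.17 ± 0.37 (adjusted p = 0.80), so that neither passed, whereas their differences against AT *BRAF*(-) were 5.31 and 4.06. *Chil1* differed by 1.23 ± 0.39 (adjusted p = 0.065). In the hyperplastic glands *Sftpb* measured 12.54 to 12.89 in BHL *BRAF*(+) and 5.65 to 6.05 in BHL *BRAF*(-).

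BL minus AT *BRAF*(+) passed in 724 genes (3.63%), 375 higher (1.88%) and 349 lower (1.75%), of which 7 were at least 2-fold higher and 1 at least 2-fold lower. *Ankrd22*, an ankyrin repeat protein, was higher by 1.24 ± 0.32 (adjusted p = 0.032) beside 3.25 against AT *BRAF*(-). *Meg3* was higher by 1.37 ± 0.40 (adjusted p = 0.0496), *Sptlc3* by 1.29 ± 0.38 (adjusted p = 0.049), *Kcnq5*, a potassium channel, by 1.27 ± 0.36 (adjusted p = 0.045) and *4921509C19Rik* by 1.40 ± 0.39 (adjusted p = 0.041). *Etv1* was the one ERK target of the 23 to pass, at 0.72 ± 0.20 (adjusted p = 0.042). On the lower side *Lgi3* differed by -1.12 ± 0.31, *Sfrp5*, a secreted Wnt antagonist, by -0.94 ± 0.27, *S100b* by -0.89 ± 0.25 and *Ndufb8* by -0.86 ± 0.21. This comparison rested on few mice. The 1271 probe sets called were 37 without AT *BRAF*(+) mouse M_779, 583 without AT *BRAF*(+) mouse M_948, and between 418 and 822 without any one of BL mice M_414, M_360, M_530, M_528 and M_80 and AT *BRAF*(+) mouse M_523, whereas 1999 and 2032 were called without BL mice M_649 and M_416. Centring the arrays turned 704 higher and 567 lower into 677 and 1588. The mean of 63 small RNA probe sets was 6.15 to 7.21 in BL and 5.88 to 6.46 in AT *BRAF*(+), and with it as a covariate 139 probe sets passed.

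PTC did not differ from BL in any gene or probe set at adjusted p under 0.05 in limma (0.0% of genes), with 774 probe sets at an unadjusted p under 0.05. The test was run on 10 PTC and 10 BL mice, and a p above the threshold does not show that the lesions are alike. *Sftpb* measured 12.21 to 12.97 in PTC, and PTC minus BL was 0.35 ± 0.21. *Ereg* differed by 0.75 ± 0.34, *Slc34a2* by 0.49 ± 0.27, *Etv1* by 0.28 ± 0.17, *Dio1* by -0.33 ± 0.39 and *Slc5a5* by -0.66 ± 0.32 in PTC minus BL. Their differences in BL minus AT *BRAF*(-) were 6.02 for *Sftpb*, 2.27 for *Ereg*, 2.03 for *Slc34a2*, 1.46 for *Etv1*, -1.53 for *Dio1* and -0.65 for *Slc5a5*, with the same BL mice in both.

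The difference of BL minus AT *BRAF*(-) was not the same in both sexes for 31 genes (0.155% of genes), tested as an interaction of group and sex over the 15 mice, with 29 of them larger in males. Each group held 2 males, so that these values rest on 4 mice, and the number of probe sets was 36, or 3 without AT *BRAF*(-) mouse M_771, 4 without mouse M_524 and 9 without mouse M_957. It was 12, 17, 19 and 23 without BL mice M_80, M_527, M_528 and M_360, and 67 without BL mouse M_416. The interaction held no age term. The AT *BRAF*(-) males were 4 and 10 months old and the females 11 to 12, so that sex and age cannot be told apart there. The BL males were 4 and 11 months old and the BL females 10 to 21. Macrophage genes formed one part. *Adgre1*, the F4/80 antigen, measured 8.14 to 8.27 in BL males and 7.44 to 8.18 in BL females, and 5.97 to 6.26 in AT *BRAF*(-) males and 7.52 to 7.64 in AT *BRAF*(-) females, a male minus female difference of the effect of 1.83 ± 0.24 (adjusted p = 0.012). The AT *BRAF*(-) males stood apart as low, and in females alone BL minus AT *BRAF*(-) was 0.27 (adjusted p = 0.62). *Csf1r*, the receptor for the macrophage growth factor, chosen after its values were seen, measured 9.59 to 9.75 in BL males, 8.94 to 9.46 in BL females, 7.92 to 8.03 in AT *BRAF*(-) males and 8.83 to 8.99 in AT *BRAF*(-) females (1.44 ± 0.20, adjusted p = 0.013). *Fcgr2b* showed 1.51 ± 0.26 (adjusted p = 0.044) and was higher in BL also in females alone, by 1.05 (adjusted p = 0.014). Of the 31 genes 5 were members of the macrophage list.

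A second set was high in BL males. The genes named here lie outside the naming rule and were chosen after their values were seen. *Sval2*, a seminal vesicle antigen-like gene, measured 5.30 to 5.34 in BL males and 2.84 to 3.17 in BL females, and 2.92 to 2.97 in AT *BRAF*(-) males and 2.91 to 3.45 in AT *BRAF*(-) females, a difference of 2.52 ± 0.19 (adjusted p = 8.3e-05). *Cuzd1*, a CUB domain protein, measured 7.70 to 9.87 in BL males and 4.20 to 4.91 in BL females, and 4.54 to 4.78 in AT *BRAF*(-) males and 4.50 to 4.71 in AT *BRAF*(-) females (4.05 ± 0.55, adjusted p = 0.012). *Krt20*, a keratin, measured 8.92 to 10.14 in BL males and 6.32 to 7.39 in BL females, and 3.88 to 4.68 in AT *BRAF*(-) males and 4.26 to 4.82 in AT *BRAF*(-) females (2.88 ± 0.48, adjusted p = 0.042), and was higher in BL in females alone by 2.38. The 10 PTC mice, which the interaction did not use, gave 6.72 to 8.02 for *Sval2* in males and 2.82 to 3.23 in females, and 8.82 to 10.39 for *Cuzd1* in males and 4.40 to 5.21 in females. The PTC males were 6 and 7 months old and the PTC females 7 to 21. The 1 BHL *BRAF*(+) male gave 5.17 for *Sval2*, 7.50 for *Cuzd1* and 10.08 for *Krt20*, above all 3 females of its group. The 1 AT *BRAF*(+) male gave 8.04 for *Cuzd1*, against 4.43 to 5.09 in females. For *Sval2* and *Krt20* that male gave 3.34 and 6.78, against 2.91 to 3.20 and 5.13 to 8.53 in females. Of the 29 genes 9 had both PTC males above all PTC females, against 802 of 19938 genes (4.02%). The small RNA mean was 6.15 to 6.68 in BL males, 6.30 to 7.21 in BL females, 6.82 to 6.95 in AT *BRAF*(-) males and 6.14 to 6.23 in AT *BRAF*(-) females, and 12 probe sets were called with it as a covariate.

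**Figure D5:**
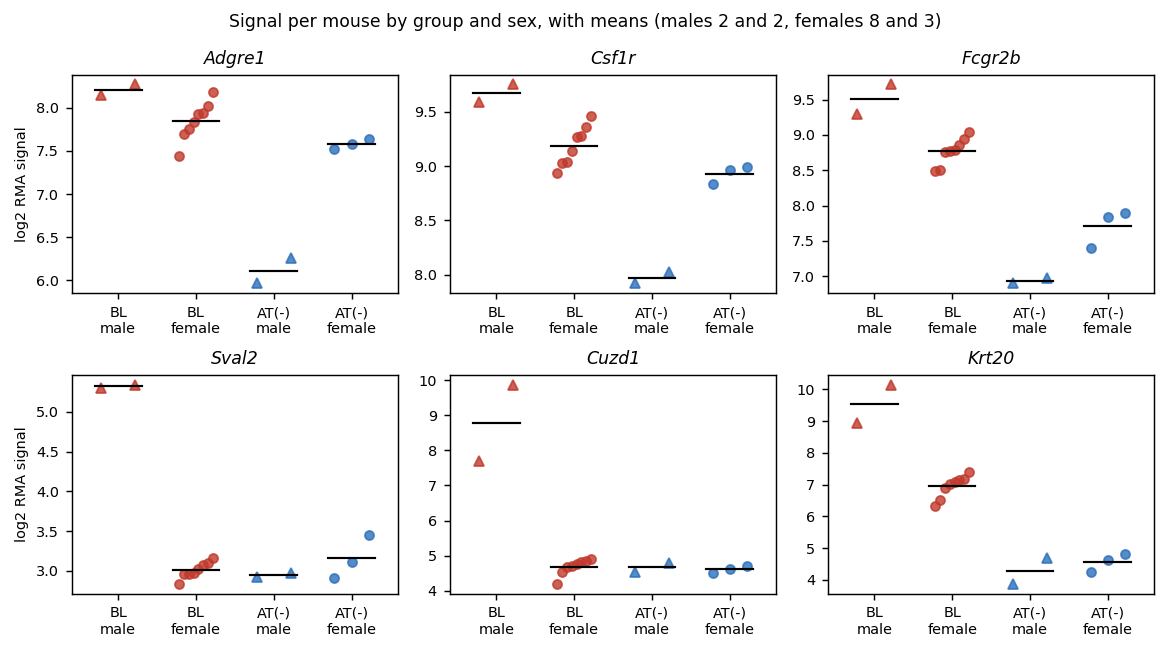
Log2 RMA signal of 6 genes by group and sex, with males as triangles and females as circles, BL in red left of AT *BRAF*(-) in blue, and the mean of each as a black line. *Adgre1*, *Csf1r* and *Fcgr2b* are low in the 2 AT *BRAF*(-) males, and *Sval2*, *Cuzd1* and *Krt20* are highest in the 2 BL males.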

How the data were processed

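RNA of one part of each thyroid of 38 mice was hybridised to GeneChip Mouse Gene 1.0 ST arrays, 1 per mouse. The authors deposited log2 signals per probe set after RMA (background correction, quantile normalisation and summary over probes); the RMA version is not given in the sources used here. RMA forces arrays to like distributions, so a difference is relative to the other genes of the array. Of 35556 probe sets, 21789 had 1 gene symbol in the platform annotation, 1621 had several and 12146 none; a gene (19938) was represented by its probe set with the highest mean.

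Groups, sex and age came from the labels, whose ages differ for some mice from the age classes the study tabulates. All 38 mice were fitted in 6 groups with sex as a covariate in limma 3.58.1 (R 4.3.3), with Benjamini-Hochberg adjustment over all probe sets and a threshold of 0.05. The study's own filter on flat probe sets (4388 kept) was an alternative. The labels do not say whether mice share a litter or a transgenic line, so p-values measure the spread between these mice. The number of arrays limits the precision. The fit was tested on simulated data. Further alternatives were no covariate, age, only the mice compared, array weights, other scalings, muscle and adipocyte covariates, a minimum fold of 1.5, an exact Mann-Whitney test, females alone and leaving out each mouse, and, chosen after seeing the data, leaving out mice with muscle or parathyroid signal and a small RNA covariate. Named genes were the 15 highest and the 15 lowest, *Braf*, the thyroid and 18-gene lists, up to 5 members of each other list with the smallest p and up to 2 others with the highest signal, and the 6 highest and 6 lowest against AT *BRAF*(+). Members, lists and rules were chosen with earlier results of these data known.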

Additional observations from a re-analysis of the deposited data

Results flagged for a closer look

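Single mice stood far from the rest of their group in 27 of 418 sets of values tested with Dixon's test (18 on genes and 9 on list means), where chance flags about 1 in 20 groups. In BL, mouse M_530 was highest for *Lad1* (9.56) and *Gpx2* (9.51), lowest for *Tg* (13.30) and highest for the mean of squamous epithelium (9.59) and of retinoid genes (7.66). BL mouse M_360 was highest for *Ccnb2* (7.49) and for the mean of immediate early genes (7.99). It was highest for *Slc2a1* too (10.65). BL mouse M_649 was lowest for *Mki67* (5.68) and highest for *Jun* (10.26), BL mouse M_80 was lowest for *Rny1* (3.96), and BL mouse M_416 was highest for the interferon mean (7.94). In AT *BRAF*(-), mouse M_940 was highest for *Egr1* (8.45) and the muscle mean (9.68) and lowest for *Tg* (13.63), *Lpl* (9.85) and the endothelium mean (8.94). AT *BRAF*(-) mouse M_524 was highest for *Lrrn1* (8.65), *Plin1* (9.76), the parathyroid mean (10.11) and the thymus mean (5.31). AT *BRAF*(-) mouse M_771 was lowest for *Itpr3* (7.92), *Dcstamp* (4.86), *Chst13* (6.49) and *Gria3* (5.42). AT *BRAF*(-) mouse M_957 was highest for *Mki67* (6.60) and the blood mean (7.93).

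The difference of BL minus AT *BRAF*(-) was tested between the sexes and passed for 14 of the genes named, given as males minus females on the log2 scale. It was larger in males for *Cuzd1* (4.05), *Krt20* (2.88), *Sval2* (2.52), *Cldn1* (2.19), *Gria3* (2.17), *Chst13* (1.94), *Cxcl16* (1.91), *Adgre1* (1.83), *Fcer1g* (1.78), *Tyrobp* (1.70), *Fcgr2b* (1.51) and *Csf1r* (1.44). It was lower in males for the small RNA genes *Rny1* (-4.31) and *Snord47* (-3.64). *Chst13*, *Gria3*, *Cxcl16*, *Fcer1g*, *Tyrobp*, *Rny1* and *Snord47* were outside the naming rule and were chosen after their values were seen.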

How the results depend on the processing

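Of the 166 genes named, 141 passed the threshold in BL minus AT *BRAF*(-), and 41 of these passed in each alternative that kept them, leaving out each mouse included. The number that still passed was 73 without the 3 muscle-rich mice, 58 with the muscle and adipocyte covariates and 81 in females alone. It was 80 by the exact two-sided Mann-Whitney test (smallest adjusted p reached 0.0268) and 63 without 5 muscle-rich or parathyroid-rich mice. With the covariates the differences of *Thrsp*, *Lpl* and *Acacb* turned to 0.028, 0.012 and 0.082. In females alone those of *Sval2*, *Chst13*, *Cxcl16* and *Rny1*, which had not passed, turned to -0.144, -0.066, -0.181 and 0.866.

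The 4075 probe sets called in BL minus AT *BRAF*(-) became 1431 with the flat filter (4388 tested, 74.6% of the calls higher, against 52.8% without it), 2567 with the mice compared alone, 1428 with the muscle and adipocyte covariates, 1887 in females alone, 1319 without the 3 muscle-rich mice, 1040 without those 5, 1559 with a minimum fold of 1.5 and 2059 by the Mann-Whitney test. Without 1 mouse the count lay between 1812 (without AT *BRAF*(-) M_940) and 4648 (without BL M_649). Median-centred arrays gave 35.4% of calls higher. The 1271 called in BL minus AT *BRAF*(+) became 212 with the flat filter, 202 with the mice compared alone, 766 with age, 171 with the muscle and adipocyte covariates, 2265 with median-centred and 2009 with equal-spread arrays, 438 in females alone, 1925, 2329 and 2646 without the 3 muscle-rich, 3 parathyroid-rich and all 5 of these mice, 139 with the small RNA covariate and 363 with the minimum fold. Median centring turned 55.4% higher into 29.9%. Without 1 mouse the count lay between 37 (without AT *BRAF*(+) M_779) and 2032 (without BL M_416). PTC minus BL gave 0 calls throughout. The 36 calls of the sex interaction became 3 with the flat filter and 12 with the small RNA covariate, and lay between 3 (without AT *BRAF*(-) M_771) and 67 (without BL M_416). The cause was not tested for any of these changes, beyond the lower number of probe sets under the flat filter. No paired analysis was possible because the mouse numbers of the labels are not shared between groups. Probes of low signal limit small differences.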

Other observations

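Gene groups outside the comparisons above held few calls in BL minus AT *BRAF*(-). Among 19 measured genes of epithelial keratins and junctions, *Tjp1*, which encodes the tight junction protein ZO-1, differed by 0.63 ± 0.14 (adjusted p = 0.0035, limma) and *Cldn8*, a claudin, by -0.43 ± 0.14 (adjusted p = 0.041). *Cldn8* did not pass without BL mouse M_360, M_528, M_530 or M_80 or AT *BRAF*(-) mouse M_524, M_771, M_940 or M_957, and *Tjp1* did not pass without the 3 muscle-rich mice. *Krt18*, a keratin of simple epithelia, differed by 0.37 ± 0.17 (adjusted p = 0.16). Among 12 squamous epithelium genes, *Ivl*, involucrin, measured 5.57 to 7.88 (median 6.87) in BL and 5.19, 4.93, 4.93, 5.34 and 5.53 in AT *BRAF*(-), a difference of 1.5 ± 0.29 (adjusted p = 0.0012). The immediate early gene *Nr4a2*, a nuclear receptor, was higher by 1.10 ± 0.21 (adjusted p = 0.0011), and *Jun*, an AP-1 subunit, was lower at -0.49 ± 0.15 (adjusted p = 0.028), a call lost without AT *BRAF*(-) mouse M_524, M_940 or M_956. Among 15 genes of glycolysis and hypoxia, *Bnip3*, a mitochondrial protein induced by hypoxia, was lower at -0.78 ± 0.21 (adjusted p = 0.016), a call lost without AT *BRAF*(-) mouse M_940, and *Slc2a1*, the glucose transporter GLUT1, differed by 0.39 ± 0.15 (adjusted p = 0.074). Among 18 genes of the unfolded protein response *Atf4*, a stress-induced transcription factor, was lower at -0.34 ± 0.10 (adjusted p = 0.026), a call lost without AT *BRAF*(-) mouse M_771, M_940 or M_957, and none was higher. *Ivl*, *Cldn8*, *Jun*, *Bnip3* and *Atf4* did not pass with the muscle and adipocyte covariates, and *Tjp1* and *Nr4a2* did.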
